A study of Mus musculus with 36 samples.

Results

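The Araf, Uba1 and Timp1 cluster is a gene-dense stretch of the mouse X chromosome with 7 genes of interest, Uba1, Cdk16, Usp11, Araf, Timp1, Elk1 and Uxt. The ubiquitin mark H2AK119ub1 was read here in 4 of the 352 windows of 250 kb that were kept for both alleles, out of 414 allelic windows in the files. These were the 2 windows that hold the midpoints of the genes and the window on each side. The genes were chosen by the 24 h differences between genotypes in the allelic ratio of the mark, so the 24 h values below are a description without a test. The 3 h libraries did not serve to choose them, and the tests were run there. Clones C3 and H1 occur in both series, so the series are separate libraries of partly the same cell lines.

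Native chromatin immunoprecipitation and sequencing was done in female mouse embryonic stem cells of the iXist-ChrX line, a 129S x Cast hybrid, with 24 H2AK119ub1 libraries and 12 input libraries. In all of them, controls included, the endogenous Xist promoter of the 129S allele is replaced by a TetOn promoter, so that doxycycline (1 µg/mL) switches Xist on. The groups were WT, clones with a deletion of the Spen RRM domain and clones with a mutation of the Spen SPOC domain, each uninduced or induced for 3 h or 24 h. The 3 h series had 1 WT pair of libraries, Spen clones C3 and C4 and SPOC clones C11 and H1. The 24 h series had 3 WT pairs, Spen clones C3 and D4 and SPOC clones E7 and H1. By the labels, Spen clone C4 is a full knockout, while C3 and D4 make a spurious truncated product. Each mutant library is from 1 clone, and the cells had grown on fibroblast feeders that were removed before plating. The 3 h libraries were all processed on the same day. In the 24 h series the Spen clones, the SPOC clones and each WT replicate were processed on separate occasions, so genotype and occasion cannot be told apart there. The files hold chromosome X alone, and embryonic stem cell markers elsewhere were not analysed here.

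In the 24 h series the names of the deposited H2AK119ub1 files of the SPOC clones give the opposite induction state to the sample titles. The states of the file names were used, and values with the titled states are given beside those of the SPOC clones at 24 h. The summed X signal lay between 116006 and 277241 units in the H2AK119ub1 libraries and between 177468 and 189684 in the inputs, and read numbers are unknown. The strain behind genome 1 or genome 2 is not given in the sources used here.

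Xist is the RNA that coats the chromosome it is made from and silences it. Spen is an RNA-binding protein that Xist recruits through its RNA recognition motifs, and its SPOC domain passes the signal on to repressor complexes. H2AK119ub1 is laid down by Polycomb repressive complex 1 and spreads over the chromosome with Xist, and gene-dense stretches of active genes are among the regions silenced during X inactivation. RNA was not measured in these libraries.

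The lower of the windows with the genes, chrX:20500001-20750000 on mm10, is called the Uba1 window. It holds the midpoints of 6 protein-coding genes. Uba1 (chrX:20658302-20683179) encodes the E1 enzyme that activates ubiquitin at the start of its transfer to proteins, and Usp11 (chrX:20703909-20720539) encodes a deubiquitinase. Between them lies Cdk16 (chrX:20687917-20699880), a cyclin-dependent kinase gene of the PCTAIRE family. The other genes of this window are Rgn, Ndufb11, a subunit of respiratory complex I, and Rbm10, a splicing regulator. Gene bodies covered 48.5% of the window.

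The upper of them, chrX:20750001-21000000, is called the Araf window and also holds 6 midpoints. Araf (chrX:20797707-20860521) encodes a kinase of the RAF family, which relays growth factor signals to the MAP kinase cascade. Elk1 (chrX:20933395-20950608) encodes an ETS transcription factor phosphorylated at the end of that cascade. Timp1 (chrX:20870166-20874737) encodes a secreted inhibitor of matrix metalloproteinases, and its gene lies inside Syn1, a synaptic vesicle gene (chrX:20860511-20920918). Uxt (chrX:20951665-20962017) encodes a prefoldin-like chaperone, and Cfp, the properdin gene, is the remaining gene. Gene bodies covered 62.8% of this window, and Araf and Syn1 overlap at their ends. All genes of a window share its value, so they are not separate measurements of the mark.

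The lower flank, chrX:20250001-20500000, holds Rp2 and Jade3 and was 63.2% covered by genes. The upper flank, chrX:21000001-21250000, holds the zinc finger genes Zfp182 and Zfp300 with Spaca5 and Ssxa1, and was 24.2% covered. Windows with at least 6 genes were few, 20 of 352 or 5.682%, of which 18 lie elsewhere on the chromosome. The median window held 1 gene, and 123 windows held none.

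The 250 bases upstream of a start of each gene were read from RefSeq on GRCm38.p6, the assembly of mm10, for all 7 genes. Uba1 has 3 listed promoters and Cdk16 has 2, and a single promoter was read for each gene. The CpG and motif counts of these genes hold for that promoter alone. They show the letters just upstream of these starts, while the signal itself was read per 250 kb and does not resolve them. The 4 printed here are those of the genes that name the 2 windows, Araf and Uba1, and those with the most and the fewest CpG dinucleotides, Uxt and Usp11. They are given 5′ to 3′ on the strand of the gene, with each CG in capitals.
Araf: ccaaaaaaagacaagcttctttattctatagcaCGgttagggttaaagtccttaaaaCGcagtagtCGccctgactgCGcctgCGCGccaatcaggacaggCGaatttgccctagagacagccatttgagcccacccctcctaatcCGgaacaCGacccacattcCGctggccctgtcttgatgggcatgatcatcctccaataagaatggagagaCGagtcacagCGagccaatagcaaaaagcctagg
Uba1: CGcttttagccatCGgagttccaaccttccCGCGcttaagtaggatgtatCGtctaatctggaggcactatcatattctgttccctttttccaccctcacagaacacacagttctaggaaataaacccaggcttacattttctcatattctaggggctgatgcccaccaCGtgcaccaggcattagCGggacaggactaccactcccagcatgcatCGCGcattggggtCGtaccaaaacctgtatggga
Uxt: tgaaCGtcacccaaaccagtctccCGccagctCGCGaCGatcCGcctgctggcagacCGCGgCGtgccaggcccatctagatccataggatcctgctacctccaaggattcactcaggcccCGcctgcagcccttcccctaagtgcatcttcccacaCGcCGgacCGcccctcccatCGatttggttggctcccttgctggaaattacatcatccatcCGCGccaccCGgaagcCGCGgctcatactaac
Usp11: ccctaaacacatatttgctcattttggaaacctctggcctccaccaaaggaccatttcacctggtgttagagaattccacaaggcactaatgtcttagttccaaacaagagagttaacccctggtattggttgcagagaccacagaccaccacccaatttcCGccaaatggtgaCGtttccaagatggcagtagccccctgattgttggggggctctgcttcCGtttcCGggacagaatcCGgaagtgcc

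The printed Araf sequence is chrX:20848293-20848542 on the plus strand, inside the span that RefSeq gives for the gene. The Uba1 sequence is chrX:20658052-20658301 on the plus strand, that of Uxt chrX:20961979-20962228 on the minus strand, and that of Usp11 chrX:20703659-20703908 on the plus strand. The number of CpG was 19 in Uxt, 12 in Araf, 10 in Uba1 and in Cdk16, 7 in Elk1, 6 in Timp1 and 5 in Usp11. Over 817 promoters of X the median was 6 with quartiles of 2 and 13, so the cluster holds promoters from below the median to above the upper quartile. Letters searched on both strands were CCGGAAG, the core bound by ETS factors such as Elk1, present in Uxt and Usp11 (2 of 7) and in 6.61% of X promoters. CCAAT stood in 6 of 7, all but Uxt, against 46.1% on X, CACGTG in 1 of 7 (Uba1) against 6.85%, and TATAAA in 0 of 7 against 10.6%. None of these motifs contains another, and a match describes letters and not binding.

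Before induction both alleles of the cluster carried similar amounts of the mark. Over the 12 uninduced libraries the genome 2 share of the allelic signal in the Araf window ran from 47.88% to 54.74% with a median of 52.81%, and in the Uba1 window from 46.79% to 55.7% with a median of 53.02%. The 12 inputs gave medians of 52.29% and 52.22% in these windows, so the shares before induction lay around those of input DNA. Total signal was above the median window of the chromosome. It was 1.23 to 1.63 times the median window in the Araf window (median 1.42), 1.36 to 1.69 times in the Uba1 window (median 1.51), 1.10 to 1.40 times in the lower flank and 1.18 to 1.38 times in the upper flank. All 12 uninduced libraries were above 1 in each of the 4 windows, and so were all 12 inputs, with medians of 1.16 in the Araf window, 1.24 in the Uba1 window, 1.17 in the lower flank and 1.19 in the upper flank.

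In WT cells, 24 h of induction left much more of the mark on genome 2 of the cluster and about the same on genome 1. In the Araf window the genome 2 signal, in the deposited units, was 78.9, 72.0 and 81.5 in the 3 uninduced libraries and 170.1, 186 and 238 in their induced partners. Genome 1 stood at 65.25, 64.9 and 70.1 before and at 65.8, 66.8 and 65.5 after. The induced libraries were thus all above the uninduced ones on genome 2, and the ranges overlapped on genome 1. In the Uba1 window genome 2 went from 76.7, 73.8 and 79.0 to 169.0, 190.2 and 237, again without overlap. The genome 2 share of the Araf window went from 54.74%, 52.6% and 53.7% to 72.1%, 73.6% and 78.4%.

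The ratio of genome 2 to genome 1 is formed within a library, so it does not rest on the deposited scaling. Its log2 change at 24 h in WT was 1.35 ± 0.27 (SD, n = 3 pairs) in the Araf window, a fold of 2.54, and 1.30 ± 0.34 in the Uba1 window, a fold of 2.46. In the lower flank it was 1.44 ± 0.20 and in the upper flank 1.04 ± 0.22 (SD, n = 3). The median over all 352 windows was 0.95. Replicate 3 had the largest change in all 4 windows, with 1.63 in the Araf window against 1.09 and 1.32, and its median window was also the highest at 1.22 against 0.80 and 0.81.

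The Spen clones showed almost none of this at 24 h. Genome 2 of the Araf window stood at 76.0 and 75.2 before induction and at 75.7 and 76.9 after in clones C3 and D4, while genome 1 went from 66.05 and 73.4 to 70.2 and 75.3. All 8 of these values lay between 66.05 and 76.9. The log2 ratio of the Araf window changed by -0.05 ± 0.06 (SD, n = 2), the Uba1 window by 0.26 ± 0.13, the lower flank by 0.17 ± 0.07 and the upper flank by 0.15 ± 0.29. Over all windows the median in these clones was 0.66, so the mark was gained elsewhere on the same chromosome in the same libraries. On that ratio, clone C3 had the Araf window 7th of 352 from the lowest change, and clone D4 had it 21st.

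The SPOC clones lay between. With the states of the file names, genome 2 of the Araf window went from 82.7 and 86.0 to 112.5 and 127.5 in E7 and H1, and genome 1 from 79.2 and 76.2 to 70.5 and 82.6. The log2 ratio changed by 0.53 ± 0.11 (SD, n = 2) in the Araf window, 0.57 ± 0.01 in the Uba1 window, 0.67 ± 0.05 in the lower flank and 0.72 ± 0.09 in the upper flank, against a median window of 0.70. With the titled states the signs of these values turn, and the mean of the windows with the genes goes from 0.55 to -0.55. The median of all windows in the SPOC clones is then -0.70, against 0.95 in WT and 0.66 in Spen clones. The libraries titled as uninduced had a genome 2 share of 61.5% (E7) and 60.7% (H1) in the Araf window. In the 12 libraries uninduced by file name it ran from 47.88% to 54.74%.

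**Figure D1:**
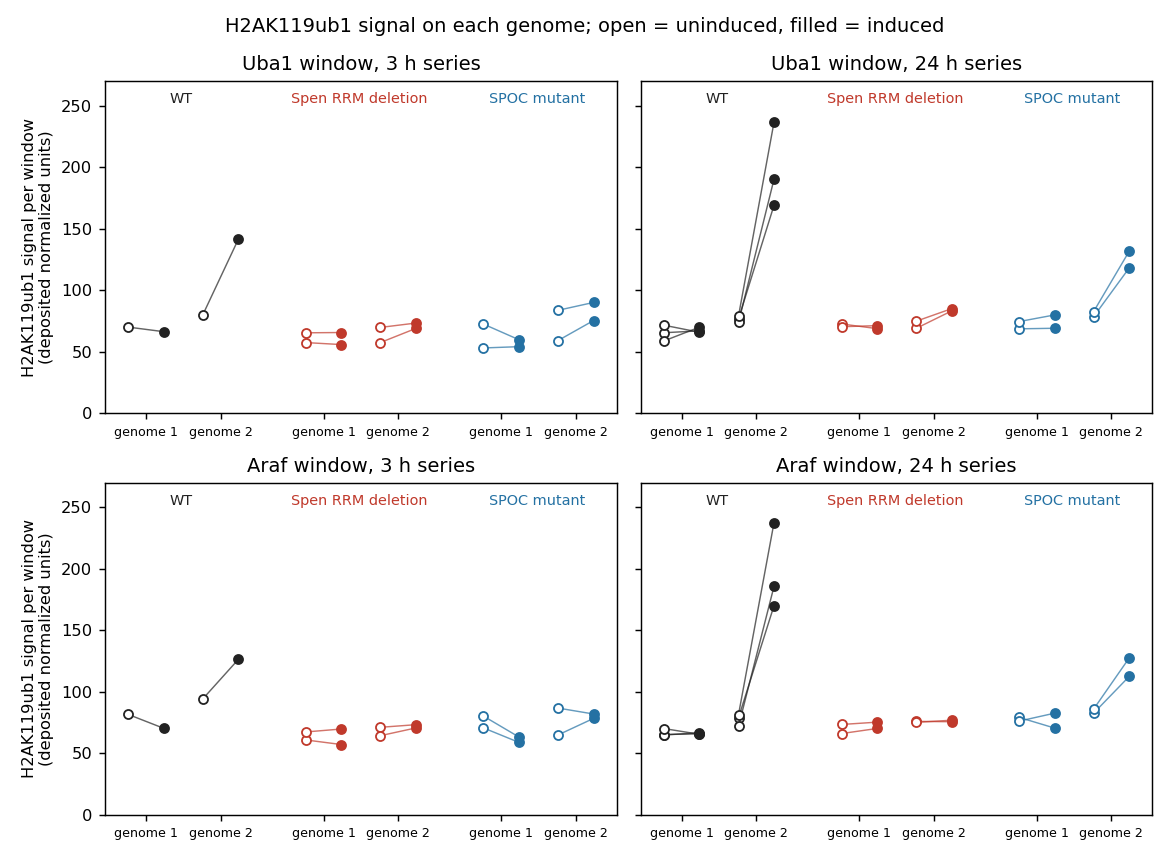
H2AK119ub1 signal of the Uba1 and the Araf window (vertical axis, deposited normalized units) on genome 1 and genome 2 in each library, with open points for uninduced and filled points for induced libraries and a line for each pair. On genome 2 the WT pairs at 24 h reach 169.0 to 238, while the Spen clones stay between 68.9 and 84.9.

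Set against WT, the 24 h values that chose the cluster were as follows, without a test. Each library was first centred on its median window, so that the difference tells how the cluster stood relative to the rest of the chromosome. The Spen minus WT difference of the centred log2 change was -1.06 ± 0.12 (SE) in the Araf window, the lowest of 352 windows. It was -0.71 ± 0.12 in the Uba1 window, -0.92 ± 0.11 in the lower flank and -0.55 ± 0.13 in the upper flank. Over all windows the median was 0.18. For SPOC minus WT the same difference was -0.55 in the Araf window, -0.46 in the Uba1 window, -0.50 in the lower flank and -0.05 in the upper flank, and the median of all windows was 0.09. With the titled states the mean of the 2 windows with the genes was -0.19 in place of -0.51.

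In the windows with the genes, these 24 h differences were smaller once the log2 ratio of each library's input was subtracted. This alternative was added after seeing the data and omits WT replicate 3, which has no input. The mean of the 2 windows with the genes was then -0.55 for Spen minus WT in place of -0.88, and -0.21 for SPOC minus WT in place of -0.51. The Araf window had -0.60 ± 0.25 (SE) for Spen minus WT and ranked 49 of 352 from the lowest, so its place as the lowest window rests on the ratios without the inputs. The Uba1 window had -0.51, the lower flank -0.99 and the upper flank -0.60.

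At 3 h the ratio rose in the WT pair in all 4 windows. In the Araf window genome 2 went from 94.3 to 126 and genome 1 from 81.6 to 70.3, and in the Uba1 window genome 2 went from 80.0 to 141 and genome 1 from 69.9 to 66.2. The log2 ratio rose by 0.98 ± 0.29 (SE) in the lower flank (adjusted p = 0.0012 in limma with Benjamini-Hochberg adjustment over 352 windows), 0.89 ± 0.29 in the Uba1 window (adjusted p = 0.0031), 0.63 ± 0.29 in the Araf window (adjusted p = 0.035) and 0.81 ± 0.29 in the upper flank (adjusted p = 0.0074). Of all windows, 79.3% rose, and 91.2% with a replicate block, so 4 of 4 is near the background. WT has 1 pair here and is assumed to vary like the clones. When the spread was estimated for each window alone, an alternative added after seeing the data, the upper flank alone passed (adjusted p = 0.044), and the adjusted p of the Araf window was 0.089. The call in the Araf window was also lost without the low-signal filter (adjusted p = 0.066) and without either SPOC clone (adjusted p = 0.088), with the same value of 0.63.

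In the Spen clones none of the 4 windows passed at 3 h. Genome 2 of the Araf window went from 71.15 to 73.3 in C3 and from 64.35 to 70.65 in C4, the full knockout, and in the Uba1 window from 69.7 to 73.2 and from 57.4 to 68.9. The log2 ratio changed by 0.11 ± 0.20 (SE) in the Araf window, 0.18 ± 0.20 in the Uba1 window, 0.18 ± 0.20 in the lower flank and 0.06 ± 0.20 in the upper flank (adjusted p = 0.67, 0.45, 0.47 and 0.83 in limma). Their 95% intervals, with the spread pooled over windows, reach from -0.34 to 0.58, and 4 residual degrees of freedom would widen them. In these clones 43.5% of all windows rose, with a median window of 0.42, and with a replicate block 76.1% did, while still 0 of the 4 windows passed (adjusted p from 0.067 to 0.59 in limma).

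In the SPOC clones the flanks rose at 3 h, by 0.44 ± 0.20 (SE) in the lower flank (adjusted p = 0.044 in limma) and 0.47 ± 0.20 in the upper flank (adjusted p = 0.030). The Uba1 window had 0.35 ± 0.20 (adjusted p = 0.11) and the Araf window 0.40 ± 0.20 (adjusted p = 0.068). With the clone as a replicate block all 4 passed (adjusted p = 0.0019 and 0.0014 for the windows of Uba1 and Araf in limma). Of all windows 74.1% rose without the block and 87.2% with it. Without either SPOC clone the calls in the flanks were lost, with changes of 0.35 to 0.59 and adjusted p from 0.14 to 0.40 in limma.

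**Figure D2:**
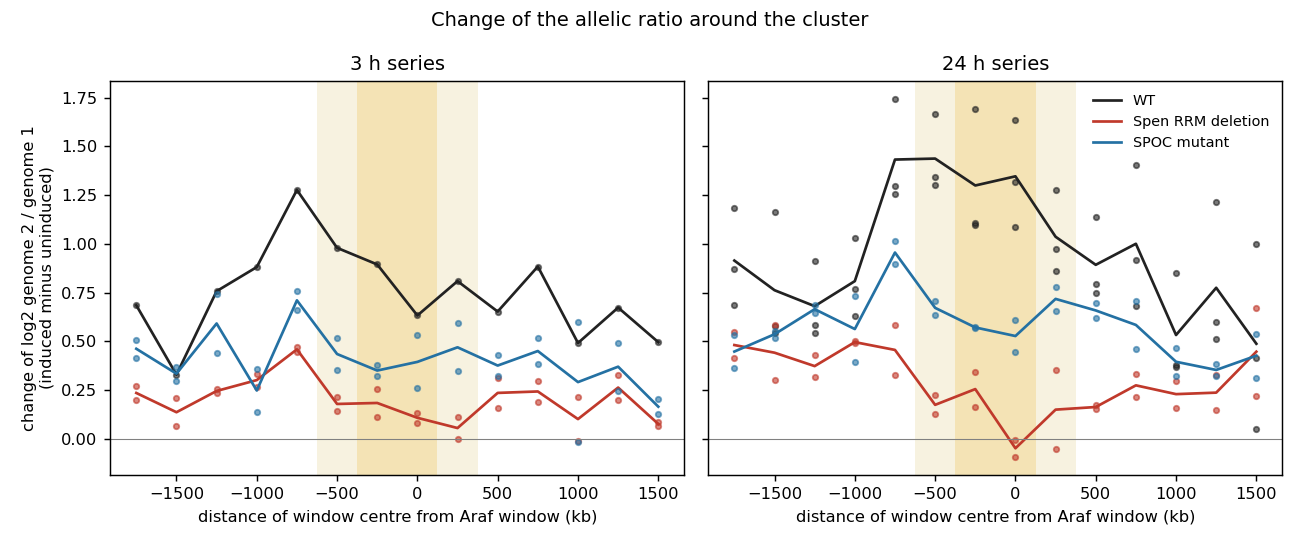
Change of the log2 ratio of genome 2 over genome 1 (vertical axis) in windows around the cluster, by the distance of the window from the Araf window in kb, with lines for the genotype means and points for single pairs; dark shading marks the windows with the genes and light shading the flanks. At 24 h the WT mean is 1.35 and the Spen mean -0.05 in the Araf window, and at 3 h they are 0.63 and 0.11.

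The difference between genotypes was tested at 3 h, in libraries that had not chosen the windows. On the ratio as it stands, Spen minus WT was -0.80 ± 0.35 (SE) in the lower flank, -0.71 ± 0.35 in the Uba1 window, -0.52 ± 0.35 in the Araf window and -0.75 ± 0.35 in the upper flank. None passed (adjusted p = 0.078, 0.12, 0.23 and 0.097 in limma), against 14.2% of all windows. With the replicate block all 4 were lower in the Spen clones (adjusted p from 0.00072 to 0.011 in limma), as were 72.4% of all windows, a share against which 4 of 4 is no result about the cluster. The median window differed by -0.60. SPOC minus WT was -0.54, -0.54, -0.24 and -0.34 in the same order, with 0 of 4 passing against 0.284% of all windows. With the block the lower flank and the Uba1 window passed (adjusted p = 0.015 and 0.014 in limma), against 43.5% of windows.

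After centring on the median window, the deficit of the Spen clones in the Araf window that stood lowest on the chromosome at 24 h was not seen at 3 h. The centred Spen minus WT difference there was 0.13 ± 0.20 (SE), with a 95% interval from -0.30 to 0.56 and rank 207 of 352 from the lowest (adjusted p = 0.72 in limma). In the Uba1 window it was -0.06 ± 0.19, in the lower flank -0.15 ± 0.18 and in the upper flank -0.10 ± 0.18, and none passed (adjusted p from 0.64 to 0.88 in limma). Of all windows 8, or 2.27%, passed, 5 higher and 3 lower. A test of 3 h against 24 h was not run across the series. SPOC minus WT was 0.13 ± 0.20 in the Araf window and -0.17 ± 0.19 in the Uba1 window (adjusted p = 0.77 and 0.69 in limma), with 0 of 352 windows passing, or 0%, and 47 at an unadjusted p under 0.05. Spen and SPOC clones differed by -0.002 in the Araf window and 0.12 in the Uba1 window (adjusted p = 0.99 and 0.76 in limma), with 0 of 352 windows passing and 34 at an unadjusted p under 0.05.

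The place of the cluster relative to the chromosome differed between the times in WT, where it lay below the median window at 3 h and above it at 24 h. In the single 3 h pair the centred change was -0.44 ± 0.16 (SE) in the Araf window, which passed as lower than the median window (adjusted p = 0.035 in limma). It was -0.18 in the Uba1 window, -0.09 in the lower flank and -0.26 in the upper flank, which did not pass, and 26.7% of all windows passed as lower. The call in the Araf window was lost without either Spen clone (adjusted p = 0.086 in limma) and with the spread estimated for each window alone (adjusted p = 0.13). In the 24 h pairs the Araf window stood at 0.26, 0.47 and 0.39, the Uba1 window at 0.28, 0.26 and 0.45 and the lower flank at 0.48, 0.49 and 0.42. The upper flank stood at 0.15, 0.01 and 0.03. All 12 of these values were above 0, and all 4 of the 3 h pair were below. With the input ratio subtracted and without WT replicate 3, the 24 h means were 0.13 in the Araf window, 0.22 in the Uba1 window, 0.49 in the lower flank and 0.04 in the upper flank.

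From 3 h to 24 h the centred WT change of the Araf window differed by 0.81, the 2nd largest of 352 windows. The lower flank with 0.56 ranked 12th, the Uba1 window with 0.50 ranked 18th and the upper flank with 0.33 ranked 63rd, and the median window had -0.07. Windows that lay below the median at 3 h and above it at 24 h numbered 39 of 352, or 11.08%, and 5 of the 18 other gene-dense windows, or 27.8%. This comparison across series was not tested, as it sets a single 3 h pair against 24 h pairs processed on other occasions, and the 24 h values bear on how the genes were chosen.

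The Spen clones kept the cluster below the median window at both times. At 3 h the centred change was -0.31 ± 0.11 (SE) in the Araf window and -0.36 ± 0.10 in the upper flank, which passed as lower (adjusted p = 0.047 and 0.014 in limma), and -0.23 ± 0.11 and -0.24 ± 0.10 in the Uba1 window and the lower flank, which did not (adjusted p = 0.12 and 0.086). With the replicate block all 4 passed (adjusted p from 0.0011 to 0.034 in limma), as did 22.2% of all windows, and without it 13.4% passed as lower. Leaving out either Spen clone ended the calls in the Araf window and the upper flank (adjusted p from 0.16 to 0.40 in limma), as did the spread of each window alone (0.16 and 0.057). At 24 h the Araf window stood at -0.72 in C3 and -0.64 in D4. Clone C3, which is in both series, had -0.27 at 3 h and -0.72 at 24 h. Being below the median at both times was common, at 125 of 352 windows or 35.5%.

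In the SPOC clones the Araf window was lower than the median window at 3 h by -0.31 ± 0.11 (SE, adjusted p = 0.038 in limma), the Uba1 window by -0.35 ± 0.11 (adjusted p = 0.019) and the lower flank by -0.27 ± 0.10 (adjusted p = 0.044). The upper flank with -0.23 ± 0.10 did not pass (adjusted p = 0.066), and it did with the block (adjusted p = 0.028 in limma). Of all windows 25.9% passed as lower, and 33.5% with the block. The calls in these 3 windows were lost without either Spen clone (adjusted p from 0.051 to 0.099 in limma) and with the spread of each window alone (from 0.085 to 0.13). Without clone H1 the Araf window did not pass either (adjusted p = 0.15 in limma), and without C11 the lower flank and the Uba1 window did not (0.30 and 0.061). At 24 h the Araf window stood at -0.10 in E7 and -0.26 in H1 and the Uba1 window at -0.14 in both. With the titled states these values were 0.10, 0.26 and 0.14. Clone H1, in both series, had -0.42 at 3 h and -0.26 at 24 h in the Araf window, or 0.26 at 24 h with the titled state.

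**Figure D3:**
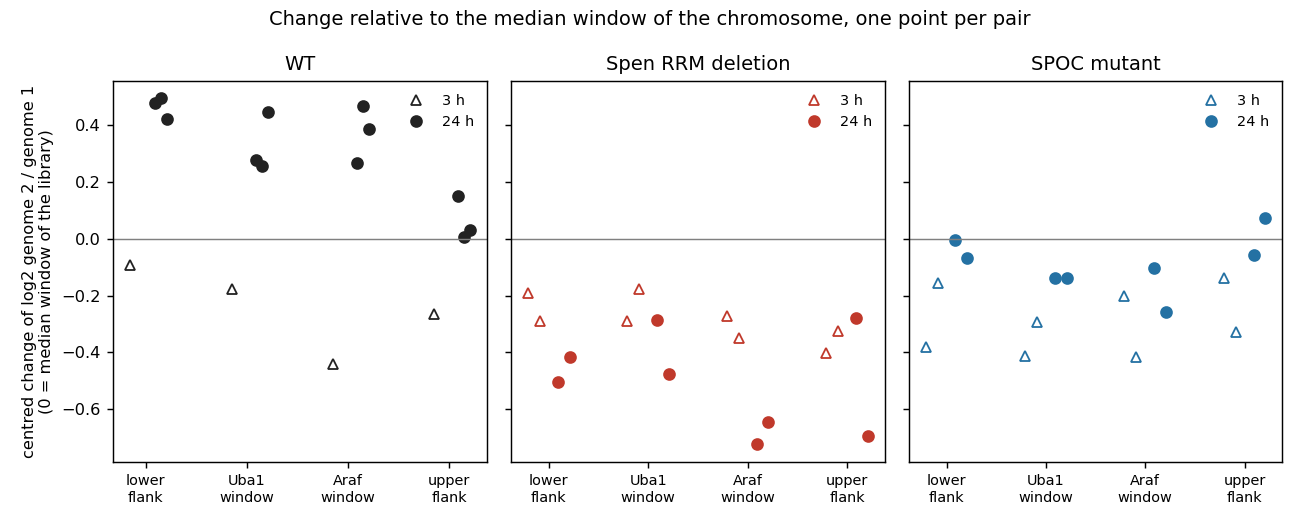
Change of the log2 ratio of genome 2 over genome 1 after centring each library on its median window (vertical axis, 0 is the median window) in the 4 windows of the stretch, with 1 point per pair, open triangles for 3 h and filled circles for 24 h. WT points in the Araf window lie at -0.44 at 3 h and between 0.26 and 0.47 at 24 h, and Spen points lie between -0.27 and -0.72 over both times.

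Total signal, from reads of both alleles, was lower relative to the median window after 24 h of induction in the mutants, with the states of the file names. Relative to the median window, the Araf window stood at 1.32, 1.23 and 1.28 times before and 1.31, 1.33 and 1.40 times after induction in WT. In Spen clones it went from 1.28 and 1.41 to 0.91 and 0.99, and in SPOC clones from 1.63 and 1.43 to 1.21 and 1.19. Uninduced and induced libraries did not overlap in the mutants and did in WT. On the deposited scaling the log2 change of the Araf window was 0.81 in WT, 0.05 in Spen and 0.24 in SPOC clones. With the titled states it was -0.18 in E7 and -0.30 in H1. The median window rose by 0.68 in WT, 0.38 in Spen and 0.47 in SPOC clones, by file name. In log2 units the centred change of the Araf window was 0.07 ± 0.07 (SD, n = 3) in WT, -0.49 ± 0.02 (SD, n = 2) in Spen and -0.34 ± 0.12 (SD, n = 2) in SPOC clones. With the titled states the SPOC clones went from 1.21 and 1.19 to 1.63 and 1.43 times, and their change was 0.34 ± 0.12, above that of WT.

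At 3 h total signal of the Uba1 and Araf windows fell relative to the median window in all genotypes. In the Araf window it went from 1.55 to 0.95 times the median window in WT, from 1.34 and 1.55 to 1.04 and 1.10 in Spen clones, and from 1.59 and 1.46 to 1.03 and 0.77 in SPOC clones. On the deposited scaling the log2 change of this window was 0.14 ± 0.31 (SE) in WT, 0.01 ± 0.22 in Spen and -0.14 ± 0.22 in SPOC clones. The median window rose by 0.78, 0.34 and 0.57, and none of the 4 windows passed as lower on that scaling. The centred log2 change was -0.71 ± 0.17 (SE) in WT, -0.42 ± 0.12 in Spen and -0.77 ± 0.12 in SPOC clones (adjusted p = 0.0060, 0.017 and 0.00070 in limma over 669 windows). All 4 windows passed as lower in Spen and SPOC clones, and 3 of 4 in WT, where the upper flank had -0.28 (adjusted p = 0.063). With the replicate block that flank passed too (adjusted p = 0.0055 in limma), as did 39.2% of all windows. In Spen clones the call of the Araf window was lost without either clone (adjusted p = 0.078 without C3 and 0.20 without C4 in limma), that of the Uba1 window without C4 (0.17) and those of the flanks without either (from 0.072 to 0.16). In WT the call of the lower flank was lost without either Spen clone (0.053). With the spread of each window alone no window kept its call in WT (from 0.074 to 0.12 in the 3 windows called) or in Spen clones (from 0.063 to 0.12), and in SPOC clones the upper flank lost it (0.062) while the other 3 windows kept it (from 0.026 to 0.029). Of all windows, 36.8% passed as lower in WT, 39.3% in Spen and 38.9% in SPOC clones. The Spen minus WT difference was 0.28 ± 0.21 in the Araf window and 0.02 ± 0.16 in the Uba1 window (adjusted p = 0.36 and 0.93 in limma), and none of the 4 windows passed against 11.1% of all. SPOC minus WT was -0.06 and -0.17 in these windows, and 0 of 669 windows passed, or 0%, with 182 at an unadjusted p under 0.05.

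Elsewhere on the chromosome, the windows whose centred ratio moved most like the mean of the Uba1 and Araf windows over the 24 H2AK119ub1 libraries all lay nearer the start of the chromosome. The highest Pearson correlations were 0.91 for the window of Cask, a scaffold kinase gene, with Gpr34 and Gpr82 (from 13500001), and 0.91 for that of Atp6ap2 and Med14 (from 12500001). They were 0.90 for the window of Usp9x, a deubiquitinase gene (from 13000001), 0.90 for the window of AA414768 (from 12750001) and 0.87 for a window of 12 genes with Hdac6, Gata1, Otud5 and Tfe3 (from 7750001). Libraries of 1 group share genotype and induction, so these values describe a common pattern over groups. The median over the other 348 windows was -0.09, and the flanks had 0.92 and 0.76. The 5 windows had centred WT changes of -0.58 to -0.11 at 3 h and 0.13 to 0.50 at 24 h, and Spen changes of -0.74 to -0.43 at 24 h. They were picked by their correlation over these same libraries, so this likeness to the cluster follows from the choice.

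The 18 other gene-dense windows did not share one behaviour. Their median Spen minus WT difference of the centred change was -0.47 at 24 h, with a range from -1.05 to 0.51, and 0.11 at 3 h, with a range from -0.50 to 0.53. None passed at 3 h in either direction. The window with the lowest 3 h value held Igbp1 and Kif4 (from 100500001), with -0.50 ± 0.16 (SE, adjusted p = 0.10 in limma) and -0.60 at 24 h. The window with the highest held Dmrtc1a and related genes (from 102750001), with 0.53 ± 0.16 (adjusted p = 0.097 in limma) and 0.51 at 24 h. The median window by this value held Bgn with Xlr3c and Zfp275 (from 73250001), with 0.09 ± 0.19 (adjusted p = 0.79 in limma) and -0.33 at 24 h. In WT 15 of 18 rose in level at 3 h, against 79.3% of all windows, and in Spen clones 4 of 18, against 43.5%.

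Genes with roles like those of the cluster were compared by list, leaving the members out. The lists are not separate sets of windows. The window with Otud5 and Pim2 (from 7750001) is in the ubiquitin and kinase lists, the dense block below and the gene-dense windows. It is also among the 5 windows most like the cluster. All 3 windows of the dense block are among the gene-dense windows. Of the windows most like the cluster, that of Usp9x is also in the ubiquitin list and that of Cask in the kinase list. The ubiquitin pathway list had 16 genes, of which 9 lay in 9 kept windows. In WT 7 of 9 rose at 3 h and in Spen clones 3 of 9, against 79.3% and 43.5% of all windows, and 0 of 9 passed for the centred Spen minus WT difference, with a median of 0.02 (range -0.67 to 0.28). At 24 h the median was -0.49. Klhl13, which encodes a substrate adaptor of a cullin ubiquitin ligase (from 23250001), had the highest 3 h value, 0.28 ± 0.17 (SE, adjusted p = 0.32 in limma). The window of Cul4b, a cullin scaffold gene, had the lowest, -0.67 ± 0.37 (from 38500001, adjusted p = 0.27 in limma). The median one was that of Otud6a, a gene of the OTU deubiquitinase family, with Awat2 (from 100250001), at 0.02 ± 0.18 (adjusted p = 0.94 in limma).

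The kinase signalling list had 15 genes, with 10 in 10 kept windows. In WT 8 of 10 rose at 3 h and in Spen clones 6 of 10, against 79.3% and 43.5% of all windows. For the centred Spen minus WT difference 1 of 10 passed, the window of Tab3 and Gk (from 85500001), which was lower by -0.88 ± 0.18 (SE, adjusted p = 0.034 in limma), against 2.27% of all windows, and the list's median was -0.23. Tab3 encodes an adaptor of the TAK1 kinase. Without either Spen clone, and with the spread of each window alone, none of the 352 windows passed, so this call was lost too. The highest value was 0.33 ± 0.22 in the window of Dusp21 and Kdm6a (from 18000001, adjusted p = 0.37 in limma), and the window of Stk26, a kinase gene, with Frmd7 (from 50750001) stood in the middle at -0.37 ± 0.23 (adjusted p = 0.34 in limma). At 24 h the list's median was -0.60.

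The dense block near the start of the chromosome, with Hdac6, Gata1, Foxp3 and Suv39h1 among its 21 listed genes, lay in 3 windows. At 24 h its centred Spen minus WT differences were -0.70, -0.87 and -0.62, and its level in Spen clones changed by -0.10 to 0.09 against 1.04 to 1.11 in WT. At 3 h the centred differences were 0.01, 0.20 and 0.40, and none passed (adjusted p = 0.96, 0.52 and 0.20 in limma). In level 1 of 3 rose in WT and 0 of 3 in Spen clones, against 79.3% and 43.5% of all windows. Over all 352 windows the median centred difference was 0.06 at 3 h and 0.18 at 24 h.

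**Figure D4:**
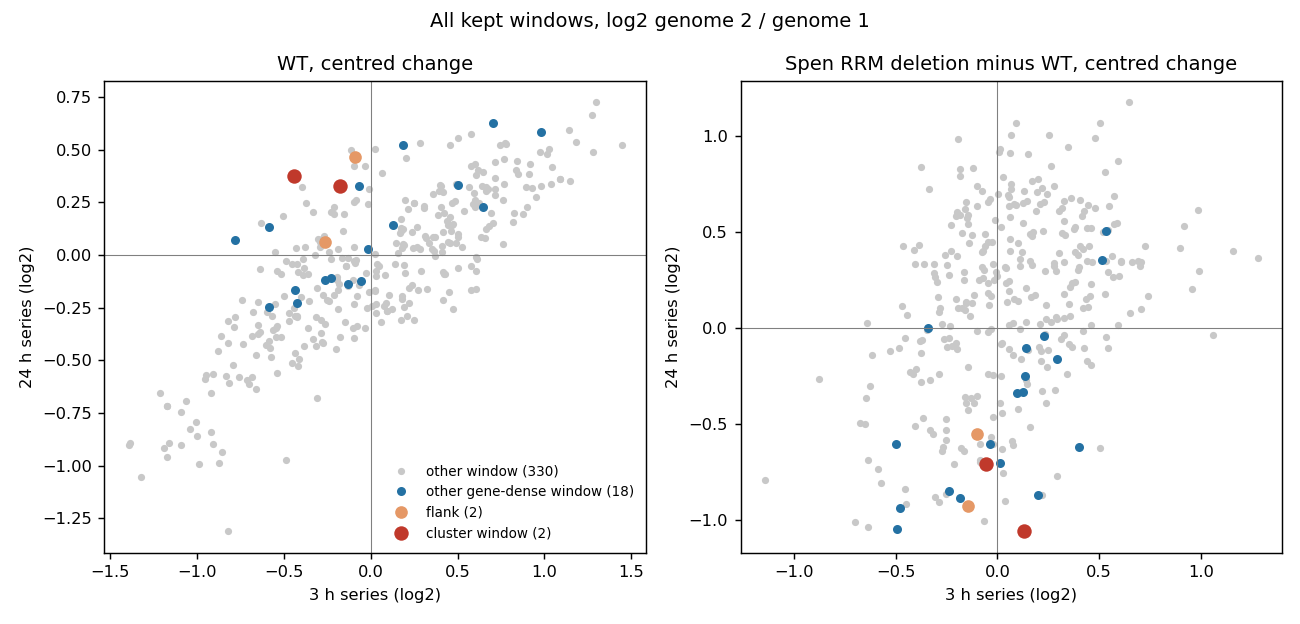
Centred change of the log2 ratio in WT (left) and the Spen minus WT difference of that change (right) in all 352 kept windows, with the 3 h series on the horizontal and the 24 h series on the vertical axis; large points mark the 2 windows with the genes and the 2 flanks, blue points the 18 other gene-dense windows. The Araf window lies at -0.44 and 0.37 in WT, and at 0.13 and -1.06 for the difference.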

How the data were processed

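The deposited files give normalized coverage signal per 250 kb window of chromosome X for all reads and for reads of each genome; the authors' scaling factor is not given in the sources used here. The submitters' processing notes name mm10, bedtools, Picard and Bowtie2 2.2.6, without their roles. For each library, genome 2 was divided by genome 1 on the log2 scale, with 1% of its median allelic window added to each. A filter on low signal (each allele at 10% or more of the median, as a mean of 36 libraries) left 352 allelic and 669 total windows. Changes were fitted with limma 3.58.1 (R 4.3.3), in 1 fit per series without a replicate block, two-sided, with Benjamini-Hochberg adjustment at 0.05. Tables and plots used Python 3.11.15 with pandas 2.3.3 and matplotlib 3.10.9. The fit without a block was tried on simulated centred 3 h ratios with independent noise. Offsets of a clone and pairing of libraries were not simulated. The 2 libraries of a WT replicate share an occasion and those of a clone a cell line, so numbers pair libraries. Across windows, deviations from group means correlated within pairs at 0.16 (Spen) and 0.31 (SPOC) at 3 h. At 24 h they did so at -0.12 to 0.02 (WT), 0.0004 (Spen) and 0.12 (SPOC). A correlation over windows does not see an offset common to all windows of a clone, which the fit without a block counts as spread. For the uncentred Spen minus WT difference of the lower flank at 3 h, the SE was 0.35 without the block and 0.15 with it. An offset common to all windows of a clone leaves 4 residual degrees of freedom behind the 3 h tests of the uncentred ratio. With the replicate block fewer remain at 3 h, and the single WT pair, which is then fitted exactly, adds none. The 3 h p-values with the block thus rest on differences between the Spen clones and between the SPOC clones, pooled over windows. The 3 h p-values measure the spread between these libraries.

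Members and lists were chosen with earlier results of these data known. The text names the 7 genes, the genes of their windows and flanks, the 5 windows most like them, and of each list the windows with the largest, median and smallest 3 h Spen minus WT difference. Drosophila spike-in reads were not used here.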

Additional observations from a re-analysis of the deposited data

Results flagged for a closer look

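In WT the centred change of the log2 ratio was below 0 in the 3 h pair and above 0 in all 3 pairs at 24 h, in each of the 4 windows. The 24 h mean exceeded the 3 h value by 0.8123 in the Araf window, 0.5041 in the Uba1 window, 0.5566 in the lower flank and 0.3262 in the upper flank. The difference was not tested, and 11.08% of all windows moved across 0 in this direction.

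At 24 h both Spen pairs had a change at or below 0 in the Araf window and all 3 WT pairs one above 0, with a difference of -1.395 in level. This was not tested, since the genes were chosen on this contrast. The Spen changes were -0.09 in C3 and -0.004 in D4. With the input ratio subtracted and without WT replicate 3, the mean Spen change in the Araf window was 0.18 and the difference -0.81.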

How the results depend on the processing

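Depth limits are unknown, since the files hold no counts, and the 3 h series has 1 WT pair, whose spread is taken from the clones. Counts of windows past the threshold depended on how the ratio was formed, filtered and centred, on the libraries used and on how the spread was estimated. The cause was not tested elsewhere. For the centred Spen minus WT difference at 3 h, 8 windows passed; 24 did with a pseudocount of 10%, 1 without the filter, 78 with the replicate block, 0 with ratios divided by their standard deviation over windows, 0 with the spread not pooled over windows (added after seeing the data), 50 without centring, and 0 to 36 leaving out a clone (0 without either Spen clone, 36 without either SPOC clone). For SPOC minus WT, 0 became 22 with the block, 1 without centring and 0 to 1 leaving out a clone (1 without H1). For Spen minus SPOC, 0 became 8 with the block. Under the centred settings among these, none of the 4 windows of the cluster passed for Spen minus WT or SPOC minus WT. The replicate block changed no call of the cluster's allelic ratio for a change or a difference from WT beyond those given beside the results. For total signal on the deposited scaling the block did change calls. Spen minus WT went from 0 to 391 of 669 windows, 390 of them lower, and SPOC minus WT from 0 to 154. The lower flank, Uba1 window and upper flank then passed for Spen minus WT (adjusted p = 0.033, 0.021 and 0.0033 in limma). The Araf window did not (0.48). For SPOC minus WT the Uba1 window alone of the cluster passed (adjusted p = 0.045 in limma). The 153 windows that rose in Spen clones at 3 h were 269 with the block (1 of them lower) and 18 with the spread not pooled, and the 261 in SPOC clones were 140 to 288 leaving out a clone (140 without C11, 166 without H1). For total signal, Spen minus WT had 74 windows, 166 with the block, 5 with the spread not pooled, 0 on the deposited scaling and 0 to 111 leaving out a clone (1 without C3, 0 without C4), and SPOC minus WT had 0, or 2 with the spread not pooled.

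Signs of small differences turned. Without centring the 3 h Spen minus WT difference of the Araf window went from 0.13 to -0.52, SPOC minus WT from 0.13 to -0.24 there and from 0.03 to -0.34 in the upper flank, and Spen minus SPOC in the Uba1 window from 0.12 to -0.17. The upper flank's SPOC minus WT was -0.035 in standard deviation units and -0.065 to 0.12 leaving out a clone. The Uba1 window's Spen minus WT ran from -0.11 to 9.69e-05 leaving out a clone, and the Araf window's Spen minus SPOC from -0.11 to 0.11. In total signal, Spen minus WT on the deposited scaling was -0.38 in the Uba1 and -0.12 in the Araf window, and leaving out a clone it ran from -0.11 to 0.16 in the Uba1 window; SPOC minus WT ran from -0.21 to 0.085 in the Araf window. By construction, centring turned the 3 h level changes of the lower flank, Uba1 window, Araf window and upper flank to -0.093, -0.18, -0.44 and -0.26 in WT, -0.24, -0.23, -0.31 and -0.36 in Spen and -0.27, -0.35, -0.31 and -0.23 in SPOC clones.

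At 24 h the mean of the windows with the genes was -0.88 for centred Spen minus WT, and -0.52 in standard deviation units, -0.55 with each library's input ratio subtracted, which WT replicate 3 lacks (added after seeing the data), and -1.22 without centring. SPOC minus WT was -0.51, and -0.34, -0.21 and -0.77 in the same order, with -0.19 for the titled states. Spen minus SPOC was -0.37, and -0.17 in standard deviation units, -0.69 for the titled states and -0.45 without centring. The level changes were 1.32 in WT, 0.10 in Spen and 0.55 in SPOC clones, after centring 0.35, -0.53 and -0.16, with the input subtraction 0.27 in Spen and 0.63 in SPOC clones, and -0.55 in SPOC clones for the titled states. Subtracting the input signal itself gave no value, since 4 of 12 libraries had a window at or below 0. Of the other values of single windows, 199 kept direction and call, 14 lost and 6 gained the call.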
